A study of Homo sapiens with 3 samples.

Results

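The Notch pathway was followed through 10 genes, chosen by symbol from the 36601 genes of the deposited matrices: the ligand genes DLL1, DLL3 and JAG1, the receptor genes NOTCH1, NOTCH2 and NOTCH3, and the HES and HEY genes HES1, HES5, HES6 and HEY1. The study differentiated human pluripotent stem cells into melanocytes through embryoid bodies in a medium with Wnt3a-conditioned medium, stem cell factor, endothelin-3 and basic fibroblast growth factor, and then plated and passaged the cells. Single cells were profiled at day 23 (D23), day 32 (D32) and day 44 (D44), with 1 library of droplet RNA-seq per day, from cells that had been cryopreserved. All 3 libraries share this protocol and none is untreated. The sample titles give induced pluripotent stem cells as the starting cells, but the source field and the cell line field give H9, which is a line of human embryonic stem cells, and this difference was not resolved.

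Notch receptors are cut after they bind a ligand on a neighbouring cell, and the freed intracellular part joins the DNA-binding protein RBPJ to switch on HES and HEY genes, which encode transcriptional repressors. In the developing nervous system, cells that begin to make neurons carry Delta ligands and proneural factors, while their neighbours receive the signal, express HES1 or HES5 and remain progenitors. In mice, Notch signalling and Hes1 also maintain melanoblasts and melanocyte stem cells.

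The promoters of 3 HES genes are shown because HES1, HES5 and HES6 had different distributions over the cell classes. Each sequence is the 250 bases before the gene's start in RefSeq (GRCh38.p14), written 5′ to 3′ on the gene's own strand. Capitals mark GTGGGAA, the core of the RBPJ binding motif, or TTCCCAC, its reverse complement, and CAGCTG, an E box bound by proneural factors that reads alike on both strands. HES1 lies at chr3:194135898-194136147 on the plus strand, HES5 at chr1:2530264-2530513 on the minus strand and HES6 at chr2:238240039-238240288 on the minus strand.
HES1: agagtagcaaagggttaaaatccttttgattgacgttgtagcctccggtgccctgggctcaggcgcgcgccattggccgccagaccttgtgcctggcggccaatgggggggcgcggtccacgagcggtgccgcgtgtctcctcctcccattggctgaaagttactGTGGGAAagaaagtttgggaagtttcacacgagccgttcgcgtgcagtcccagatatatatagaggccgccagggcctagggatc
HES5: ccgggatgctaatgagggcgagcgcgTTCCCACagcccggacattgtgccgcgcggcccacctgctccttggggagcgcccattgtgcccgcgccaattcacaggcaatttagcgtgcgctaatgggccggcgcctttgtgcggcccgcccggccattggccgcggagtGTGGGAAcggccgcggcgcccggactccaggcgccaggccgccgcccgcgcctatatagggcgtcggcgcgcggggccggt
HES6: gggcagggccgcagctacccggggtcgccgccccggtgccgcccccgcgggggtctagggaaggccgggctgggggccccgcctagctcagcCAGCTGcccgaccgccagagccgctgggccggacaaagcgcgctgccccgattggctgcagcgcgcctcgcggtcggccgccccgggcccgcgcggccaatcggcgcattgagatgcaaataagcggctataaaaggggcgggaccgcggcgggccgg
HES1 held 1 match to the RBPJ core, 85 bases before the start, and HES5 held 2, at 224 and 81 bases. HES6 held no match to the RBPJ core and 1 E box, at 158 bases. The promoters of NOTCH1, NOTCH2, NOTCH3 and JAG1 held neither motif, and those of DLL1, DLL3 and HEY1 were not examined. Among 35116 RefSeq promoters of the same length, 5.43% held the RBPJ core and 14.0% the E box.

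The libraries held 5585, 8927 and 8010 barcodes, of which 3796, 6023 and 5811 passed the study's cell filter, with medians of 12574, 36375 and 42940 unique molecular identifiers (UMIs) per cell at D23, D32 and D44. Cells were placed in classes by scores of marker genes that include no Notch gene. At D23 there were 296 neurogenic-like cells, 631 neural crest-like, 264 mesenchyme-like and 2441 melanocyte-like cells, with 164 cells unassigned. D32 held 15, 107, 261 and 5514 cells of these classes, and D44 held 0, 6, 13 and 5768. DCX, a microtubule protein of young neurons, was at 545 CPM (UMIs of the gene per 1000000 UMIs of the class) in the neurogenic-like cells of D23 and at most 0.629 in the other classes, and the collagen gene COL1A1 was at 3680 in the mesenchyme-like cells. The neural crest-like cells carried ZIC1, a dorsal neural transcription factor, at 295 CPM, but also COL1A1 at 1193. Their median mesenchyme score was 0.888 at D23 and 0.561 at D32, above the cut of 0.5 for mesenchyme-like cells. That class is thus not free of mesenchymal transcripts, and it was set apart from the mesenchyme-like class by the neural crest score only. WNT1, another marker of the neural crest score, had 0 UMIs in the neural crest-like cells. The melanosome gene PMEL was at 1757 CPM in the melanocyte-like cells and still at 498 in the neurogenic-like cells, whereas MLANA, another melanosome gene, was at 552 and 7.82. The neurogenic-like cells were shallower (median 5686 UMIs, against 14515, 11685 and 12669 in the neural crest-like, mesenchyme-like and melanocyte-like cells). D23 came from its own induction and sequencing batch, whereas D32 and D44 shared one, so day and batch cannot be told apart between D23 and the later libraries.

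Delta ligand transcripts were concentrated in the neurogenic-like cells of D23. DLL3, a divergent ligand that in mouse and cultured cells acts within the same cell rather than on neighbours, was at 820 CPM there (95% exact Poisson interval 780 to 861, 1572 UMIs). It was at 11.9 in neural crest-like, 5.97 in mesenchyme-like and 6.07 in melanocyte-like cells of the same library. The neurogenic-like level was therefore 68.7 times that of the neural crest-like cells (95% interval 56.9 to 83.8), 137 times that of the mesenchyme-like cells and 135 times that of the melanocyte-like cells. These intervals, like all others on single libraries here, cover counting error only, because each day had 1 library and no test between classes or days was possible within it.

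DLL1, a ligand that activates Notch on neighbouring cells, had 94 UMIs in the neurogenic-like cells of D23, or 49.0 CPM. It had 0 UMIs in the 631 neural crest-like and 0 in the 264 mesenchyme-like cells, and 12 in the 2441 melanocyte-like cells (0.368 CPM). The neurogenic-like level was 158 times a floor of 3 UMIs in the neural crest-like class and 52.0 times that floor in the mesenchyme-like class. These are not 95% limits, since the upper limits for 0 UMIs were 0.382 and 1.16 CPM, above the floors of 0.311 and 0.943. Against the melanocyte-like cells the ratio was 133 (95% interval 72.8 to 267). Of all DLL1 UMIs in the D23 library, 86.2% (94 of 109) came from the neurogenic-like cells, and of the DLL3 UMIs 78.8% (1572 of 1996), although these cells made up 7.80% of the cells and 3.85% of all UMIs. The stricter gate kept 181 of the 296 neurogenic-like cells. These gave 41.3% of the same DLL1 total, in which the UMIs of the cells that no longer passed were still counted.

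JAG1, a ligand of the Serrate family, had a different distribution. At D23 it was at 25.5 CPM in neurogenic-like cells, 42.4 in neural crest-like, 38.4 in mesenchyme-like and 25.1 in melanocyte-like cells. The neural crest-like and mesenchyme-like cells were thus the higher classes, and the neurogenic-like and melanocyte-like cells had overlapping counting intervals. At D32 the values were 19.9, 29.9, 25.7 and 17.5 in the same order, and at D44 32.9 in the mesenchyme-like and 21.7 in the melanocyte-like cells. Of the JAG1 UMIs of D23, 3.29% came from the neurogenic-like cells (exact binomial interval 2.44 to 4.32), which includes their 3.85% of all UMIs. The neural crest-like cells gave 27.4% and held 19.4% of all UMIs.

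**Figure D1:**
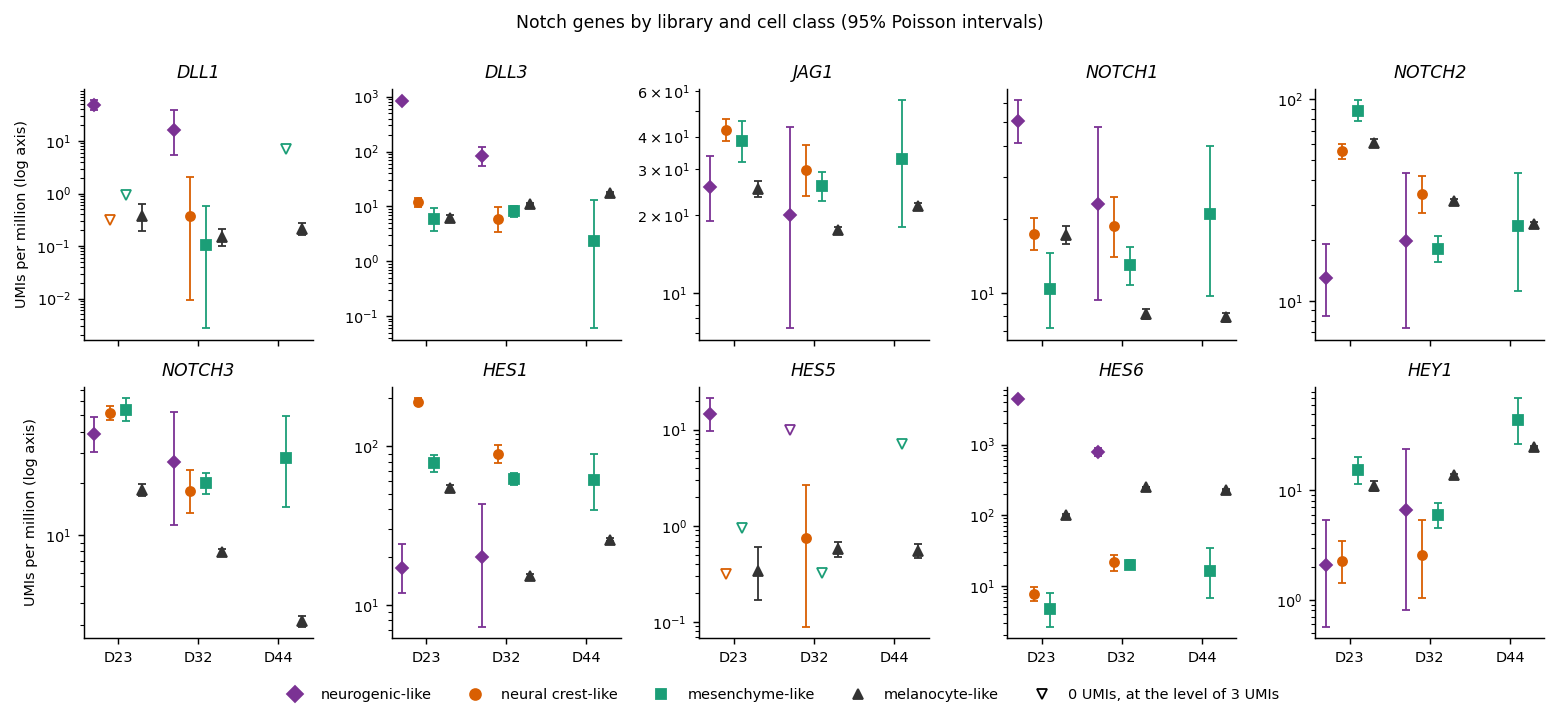
Level of each Notch gene in CPM (log axis) at D23, D32 and D44 in 4 cell classes, with 95% Poisson intervals; open triangles mark classes with 0 UMIs at the level of 3 UMIs, and the 6 neural crest-like cells of D44 are not drawn. DLL1, DLL3 and HES6 stand highest in the neurogenic-like cells of D23 (49.0, 820 and 4425 CPM), and HES1 stands lowest there among the D23 classes (17.2 CPM).

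The receptors were spread over all classes, each with its own order at D23. NOTCH1 was at 50.6 CPM in neurogenic-like cells, 17.5 in neural crest-like, 10.4 in mesenchyme-like and 17.3 in melanocyte-like cells. Neurogenic-like cells were the highest class, at 2.89 times the neural crest-like level (95% interval 2.23 to 3.73), and the neural crest-like and melanocyte-like cells had overlapping intervals. NOTCH2 followed the opposite order, at 13.0 CPM in neurogenic-like cells, 55.5 in neural crest-like, 88.0 in mesenchyme-like and 60.9 in melanocyte-like cells, so that the neurogenic-like level was 0.235 of the neural crest-like level (0.151 to 0.351). NOTCH2 shares near-identical sequence with NOTCH2NLA, NOTCH2NLB and NOTCH2NLC, human-specific partial copies, and reads may have been split among them.

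NOTCH3, a receptor best known from mural cells of blood vessels, was at 38.6 CPM in neurogenic-like cells, 51.4 in neural crest-like, 53.8 in mesenchyme-like and 18.3 in melanocyte-like cells. The neural crest-like and mesenchyme-like cells did not differ beyond their counting intervals, and all 3 other classes stood above the melanocyte-like cells. RGS5, a mural gene, was at 86.0 CPM in the neural crest-like cells of D23, and the mural list of 5 genes summed to 92.3 there, 31.3 in neurogenic-like, 26.4 in mesenchyme-like and 10.7 in melanocyte-like cells, and its part in the NOTCH3 levels was not tested. By count, melanocyte-like cells, which held 65.5% of all UMIs of D23, gave 63.0% of the NOTCH1 UMIs, 66.7% of the NOTCH2 UMIs and 42.0% of the NOTCH3 UMIs. Neurogenic-like cells gave 10.8%, 0.838% and 5.21% of them.

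**Figure D2:**
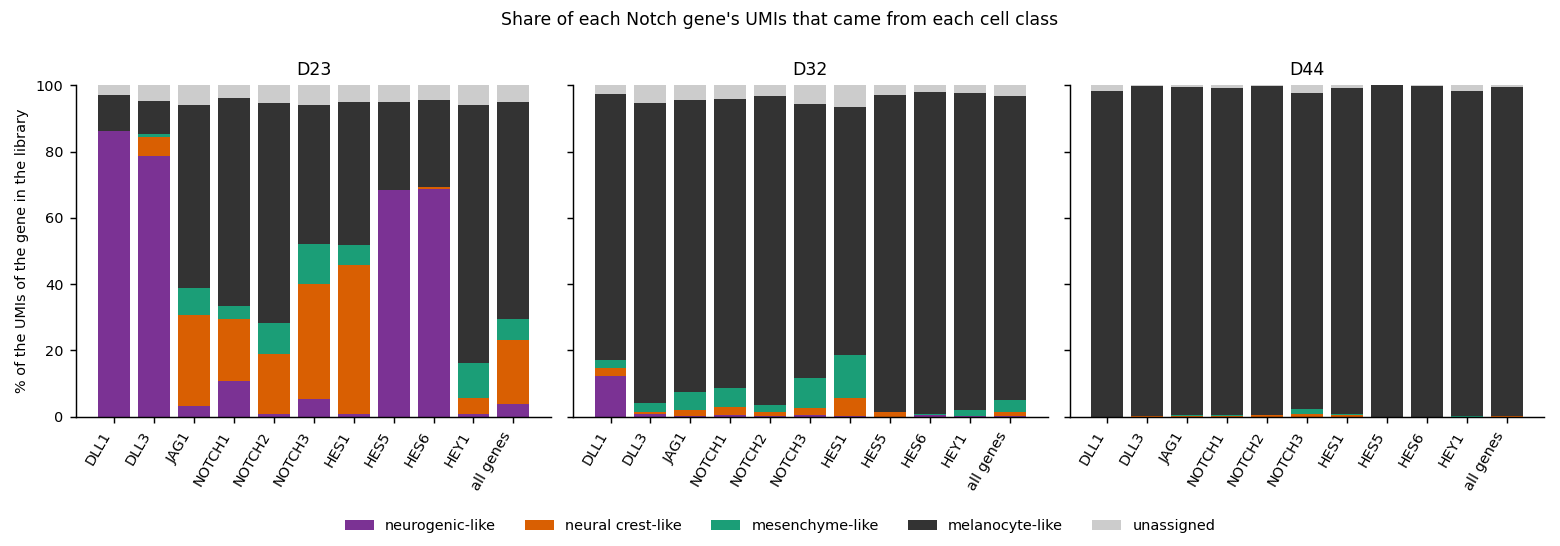
Share of each Notch gene's UMIs, and of all UMIs (last bar), that came from each cell class at D23, D32 and D44, in percent. At D23 the neurogenic-like cells gave 86.2% of the DLL1 UMIs, 78.8% of the DLL3 UMIs and 68.7% of the HES6 UMIs, while most receptor UMIs came from other classes.

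The HES genes divided the classes in different ways. HES6, which in mice opposes HES1 and promotes neuronal differentiation, was at 4425 CPM in the neurogenic-like cells of D23 (4331 to 4520), 7.67 in neural crest-like, 4.72 in mesenchyme-like and 99.6 in melanocyte-like cells. The ratios were 577 over the neural crest-like cells (95% interval 459 to 735) and 44.4 over the melanocyte-like cells (42.7 to 46.3), and the melanocyte-like cells stood in turn above the other 2 classes. HES1, the canonical Notch target, was instead lowest in the neurogenic-like cells and highest in the neural crest-like cells, with 17.2 CPM in neurogenic-like cells, 191 in neural crest-like, 78.0 in mesenchyme-like and 54.4 in melanocyte-like cells. The neurogenic-like level of HES1 was 0.0899 of the neural crest-like level (0.0617 to 0.127). With 10% free RNA taken off this HES1 ratio was 0.0484, and with Louvain clusters in place of the gate it was 0.129. With a stricter gate it was 0.00492, but that gate kept 181 neurogenic-like cells and the value rests on few HES1 UMIs. Of the 33 HES1 UMIs of the class, 31 lay in the 99 cells with the lowest level of neuronal genes. The HES6 ratio over the neural crest-like cells was 380 with the clusters.

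HES5, the target typical of neural progenitors, was a low transcript with 41 UMIs in all of D23, of which 28 came from the neurogenic-like cells (68.3%, exact binomial interval 51.9 to 81.9). It had 0 UMIs in the neural crest-like and mesenchyme-like cells and 11 in the melanocyte-like cells. HEY1 had 4 UMIs in the neurogenic-like cells of D23 (2.09 CPM) and was at 2.28 in neural crest-like, 15.4 in mesenchyme-like and 11.1 in melanocyte-like cells, so the neurogenic-like and neural crest-like cells formed the lower group. Melanocyte-like cells gave 78.0% of the HEY1 UMIs of D23.

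Shares of cells with a UMI were then compared at equal depth. After each cell of D23 was thinned to 3000 UMIs, 292 neurogenic-like, 628 neural crest-like, 256 mesenchyme-like and 2423 melanocyte-like cells remained. DLL3 was detected in 72.9% of the neurogenic-like cells (213 of 292), 3.03% of the neural crest-like, 0.781% of the mesenchyme-like and 1.73% of the melanocyte-like cells. HES6 was detected in 85.3%, 1.91%, 2.34% and 24.6% of them, and DLL1 in 11.0%, 0%, 0% and 0.0413%. For 0 of 628 neural crest-like cells the exact binomial upper limit was 0.586%. HES1 was detected in 2.40% of the neurogenic-like and 36.6% of the neural crest-like cells, and NOTCH1 in 14.4% and 5.10%. As a gauge of free RNA, PMEL was found in 13.1% of the thinned neural crest-like and 11.3% of the mesenchyme-like cells. PMEL was also found in 69.5% of the thinned neurogenic-like cells, and its part in their HES6 and DLL3 levels was not tested. Before thinning, DLL3 was found in 81.1%, 15.2%, 6.44% and 7.46% of the neurogenic-like, neural crest-like, mesenchyme-like and melanocyte-like cells, HES6 in 92.2%, 8.40%, 5.30% and 64.6%, and HES1 in 5.41%, 69.9%, 42.4% and 42.2%. For DLL3, HES6 and HES1 the class that stood highest was the same at both depths, and the low HES6 shares of the neural crest-like and mesenchyme-like cells changed order.

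Within the 292 thinned neurogenic-like cells, DLL3 and HES6 were found together. HES6 was detected in 98.1% of the 213 cells with DLL3 and in 50.6% of the rest. DLL1 was detected in 32 cells, of which 26 also had DLL3. NOTCH1 was found in 16.9% of the cells with DLL3 and 7.59% of the rest, whereas NOTCH3 was found in 5.16% and 15.2%. HES1 was found with DLL3 in 1 cell (0.469% of the cells with DLL3, against 7.59% of the rest), and HES5 with DLL1 in 0 cells. These shares describe cells of 1 library and were not tested.

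The neurogenic-like cells were then ordered by the summed level of 4 neuronal genes (DCX, ELAVL3, ELAVL4 and STMN2, themselves markers of the class) and divided into bins of 99, 99 and 98 cells. From the lowest to the highest bin, NOTCH3 was at 70.1, 17.2 and 8.34 CPM, NOTCH2 at 26.9, 3.43 and 0, and HES1 at 36.2, 3.43 and 0. These 3 genes thus stood highest in the cells with least neuronal transcript. HES5 was at 24.5, 3.43 and 10.4, with overlapping intervals in the lowest and highest bins. DLL3 peaked in the middle bin (317, 1490 and 903), as did HES6 (2627, 7214 and 4245), while DLL1 was at 57.3, 63.5 and 16.7 and NOTCH1 at 30.4, 72.1 and 60.5.

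Other genes of the neurogenic program in these bins were read from a list of proneural and progenitor genes. ATOH1, a proneural factor of dorsal neural tissue, was at 166, 477 and 336 CPM, and INSM1, a factor of newborn neurons, at 215, 736 and 626. SOX2, a progenitor factor that was itself a marker of the class, was at 307, 348 and 179. In the whole class ATOH1 was at 303 and NEUROG2 at 1.04 CPM, and NEUROG1 had 0 UMIs, so the proneural genes of this class were not equally detected. The lowest bin was also the deepest (median 8409, 5542 and 4448 UMIs per cell), had the highest neural crest score (0.478, 0.350 and 0.260) and the most COL1A1 (85.3, 6.86 and 10.4 CPM), and their part in the HES1 and NOTCH3 levels was not tested. PMEL ran the other way, at 304, 529 and 807.

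**Figure D3:**
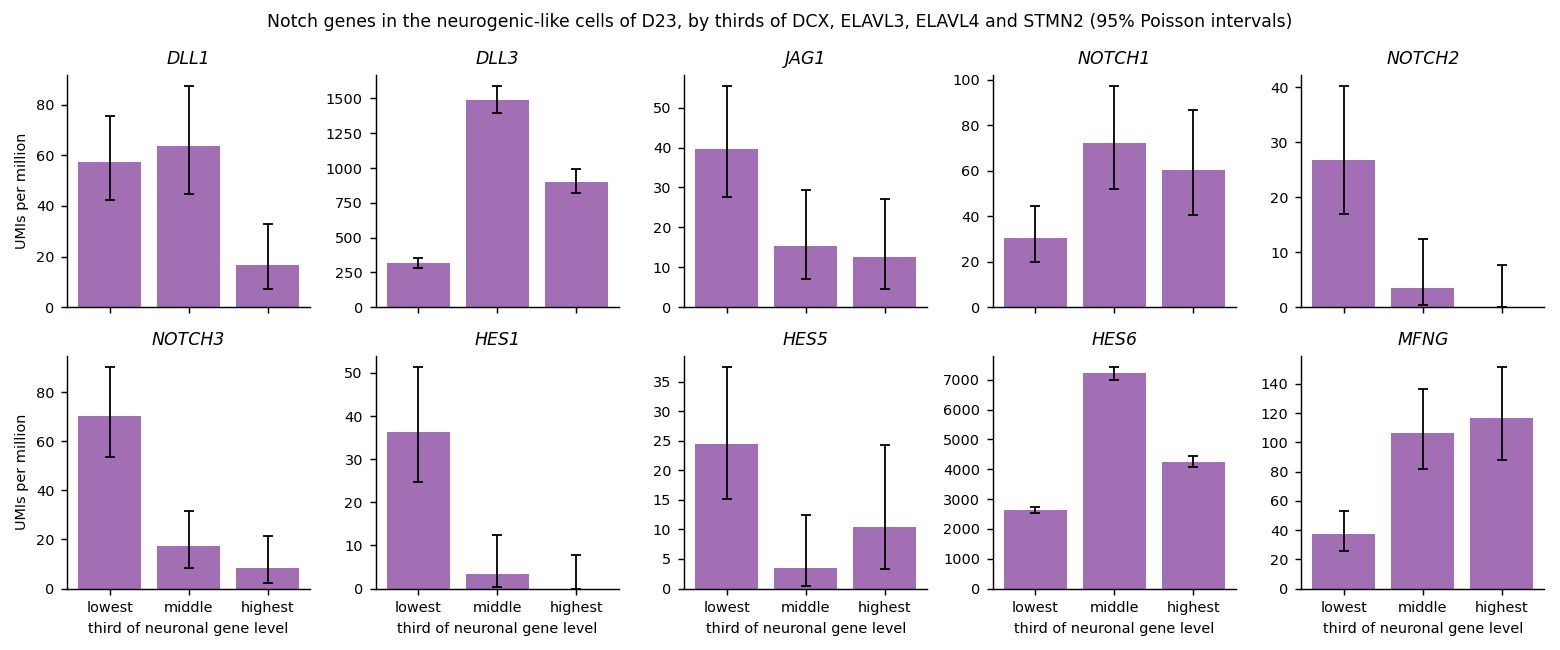
Level in CPM of 9 Notch genes and MFNG in the neurogenic-like cells of D23, split into 3 bins by summed DCX, ELAVL3, ELAVL4 and STMN2, with 95% Poisson intervals. HES1, NOTCH2 and NOTCH3 are highest in the lowest bin (36.2, 26.9 and 70.1 CPM), and DLL3 and HES6 in the middle one (1490 and 7214 CPM).

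Outside the 10 genes, MFNG, MIB1, RBPJ and DLK1 are given for D23 as examples chosen after their values were seen. MFNG, a fringe enzyme that adds sugars to Notch receptors and changes their response to ligands, was at 78.2 CPM in neurogenic-like, 0.104 in neural crest-like, 0 in mesenchyme-like and 0.0613 in melanocyte-like cells, and 89.8% of its UMIs (150 of 167) came from the neurogenic-like cells. MIB1, the ubiquitin ligase that Delta ligands need in order to signal, was at 343, 104, 111 and 121 in the same order. RBPJ was at 213, 87.8, 96.8 and 97.0. These levels stood above the counting intervals of the other classes. DLK1, a non-canonical ligand that lacks the usual receptor-binding domain, was at 161 CPM in neurogenic-like and 59.9 in neural crest-like cells and at 1.26 and 1.59 in mesenchyme-like and melanocyte-like cells.

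At D32 the neurogenic-like class held 15 cells. They again held the highest level of DLL3, at 83.0 CPM (53.7 to 123, 25 UMIs), against 5.90 in neural crest-like, 8.08 in mesenchyme-like and 11.2 in melanocyte-like cells. DLL1 had 5 UMIs in these 15 cells and 33 in the 5514 melanocyte-like cells, a ratio of 111 (34.0 to 287). HES6 was at 784 CPM, against 21.4, 19.9 and 249 in the neural crest-like, mesenchyme-like and melanocyte-like cells. Both Delta genes and HES6 were thus highest in the same class as at D23, at lower levels, but no cluster of D32 held these cells apart, and only 4 of them passed a stricter gate. D44 held no neurogenic-like cell.

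For comparisons over libraries, UMI counts were added up for each class of each library and tested by the quasi-likelihood method of edgeR, with library as a block. The test used 10 sums of at least 10 cells, so that the neural crest-like class entered from D23 and D32 only. The p-values measure how a difference recurred over these libraries. D32 and D44 shared an induction and a sequencing batch, which the p-values do not take into account. Of the 10 genes 9 passed the filter on low counts and HES5 did not. Neurogenic-like cells entered the fit but were compared by levels only. Where groups are said below not to overlap, the share of all genes for which this holds was not counted.

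Between neural crest-like and melanocyte-like cells, HES1 and NOTCH3 were higher and HES6 and HEY1 lower in the neural crest-like cells. These are 4 of the 9 genes, where 10.8% of all 14705 genes tested were called higher and 7.32% lower, and the median log2 fold change was −0.18 over the 9 genes and −0.11 over all genes. HES1 was at 191 and 89.2 CPM in the neural crest-like cells of D23 and D32, against 54.4, 15.2 and 25.8 in the melanocyte-like cells of D23, D32 and D44, without overlap. Its log2 fold change was 1.97 ± 0.34 (SE, Benjamini-Hochberg adjusted p = 0.00389). HES6 was at 7.67 and 21.4 in the neural crest-like cells, against 99.6, 249 and 230 in the melanocyte-like cells, again without overlap (log2 fold change −3.82 ± 0.96, adjusted p = 0.0247 by edgeR). HEY1 was at 2.28 and 2.58 against 11.1, 13.8 and 25.1 (−2.42 ± 0.52, adjusted p = 0.0124 by edgeR), and its groups did not overlap either.

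NOTCH3 was at 51.4 and 18.1 CPM in neural crest-like cells, against 18.3, 7.91 and 3.13 in melanocyte-like cells, where the lowest neural crest-like value lay just under the highest melanocyte-like one. Within each library the neural crest-like level was higher, by 2.81 times at D23 (95% interval 2.49 to 3.17) and 2.28 times at D32 (1.68 to 3.03), and the log2 fold change was 1.39 ± 0.32 (adjusted p = 0.0164 by edgeR). The NOTCH3 call was lost without D23, which left 1 neural crest-like sum (log2 fold change 1.32). It was also lost without the library block (adjusted p = 0.121 by edgeR), and the HES6 call without D44 (0.0550). With Louvain clusters in place of the gate the HES6 and HEY1 calls were lost, with log2 fold changes of −1.98 (adjusted p = 0.070 by edgeR) and −1.81 (0.0597). JAG1 was 1.69 and 1.71 times as high in neural crest-like as in melanocyte-like cells at D23 and D32, which did not pass the test (log2 fold change 0.61 ± 0.21, adjusted p = 0.0763 by edgeR). It passed in 5 of 15 alternative settings. NOTCH1, NOTCH2, DLL1 and DLL3 did not pass the test.

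Mesenchyme-like cells gave a similar contrast with melanocyte-like cells for 3 of the 9 genes, NOTCH3 and HES1 higher and HES6 lower, where 9.56% of all genes tested were called higher and 9.26% lower. NOTCH3 was at 53.8, 20.0 and 28.2 CPM in the mesenchyme-like cells of D23, D32 and D44, against 18.3, 7.91 and 3.13 in the melanocyte-like cells, without overlap (log2 fold change 1.75 ± 0.30, adjusted p = 0.00394 by edgeR). HES6 was at 4.72, 19.9 and 16.4 against 99.6, 249 and 230, also without overlap (−3.86 ± 0.83, adjusted p = 0.0122 by edgeR). HES1 was at 78.0, 62.3 and 61.1 against 54.4, 15.2 and 25.8 (1.17 ± 0.30, adjusted p = 0.0250 by edgeR). The HES1 call was the least stable of the 3: it held in 8 of 15 alternative settings and was lost without D32 (log2 fold change 0.72, adjusted p = 0.168) and without D44 (1.28, 0.0773). NOTCH3 lost its call without the library block (adjusted p = 0.109 by edgeR), and HES6 without D44 (0.0622) and without the D44 cluster led by NPY, VGF and COL1A1 (0.0552). That cluster held all 13 mesenchyme-like cells of D44, so both of these settings drop the D44 mesenchyme-like sum. JAG1 was 1.53, 1.47 and 1.51 times as high in the mesenchyme-like cells of the 3 libraries but did not pass the test (adjusted p = 0.0957 by edgeR), and HEY1, NOTCH1, NOTCH2, DLL1 and DLL3 did not pass it either. The median over the 9 genes was −0.08, against −0.11 over all genes.

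Between neural crest-like and mesenchyme-like cells, edgeR called 0 of the 9 genes, where 1.89% of all genes tested were called higher and 1.12% lower. At an unadjusted p under 0.05 by edgeR there were 2 genes, HEY1 and HES1, where 2573 of all 14705 genes tested were under it. DESeq2 called 1 gene, HEY1, where it called 1013 of all 14705. HEY1 was at 2.28 and 2.58 CPM in the neural crest-like cells, against 15.4, 5.96 and 44.6 in the mesenchyme-like cells, without overlap (log2 fold change −2.34 ± 0.54, adjusted p = 0.0584 by edgeR). Without D32, which left 1 neural crest-like sum, its log2 fold change was −2.77. Of the alternative settings with more than 1 neural crest-like sum, DLL3 passed only with clusters in place of the gate. HES1 was at 191 and 89.2 against 78.0, 62.3 and 61.1 (0.80 ± 0.33, adjusted p = 0.251 by edgeR). The neural crest-like cells of D44, left out of the fit, had 122 CPM of HES1 (28 UMIs in 6 cells) and 0 UMIs of HES6.

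**Figure D4:**
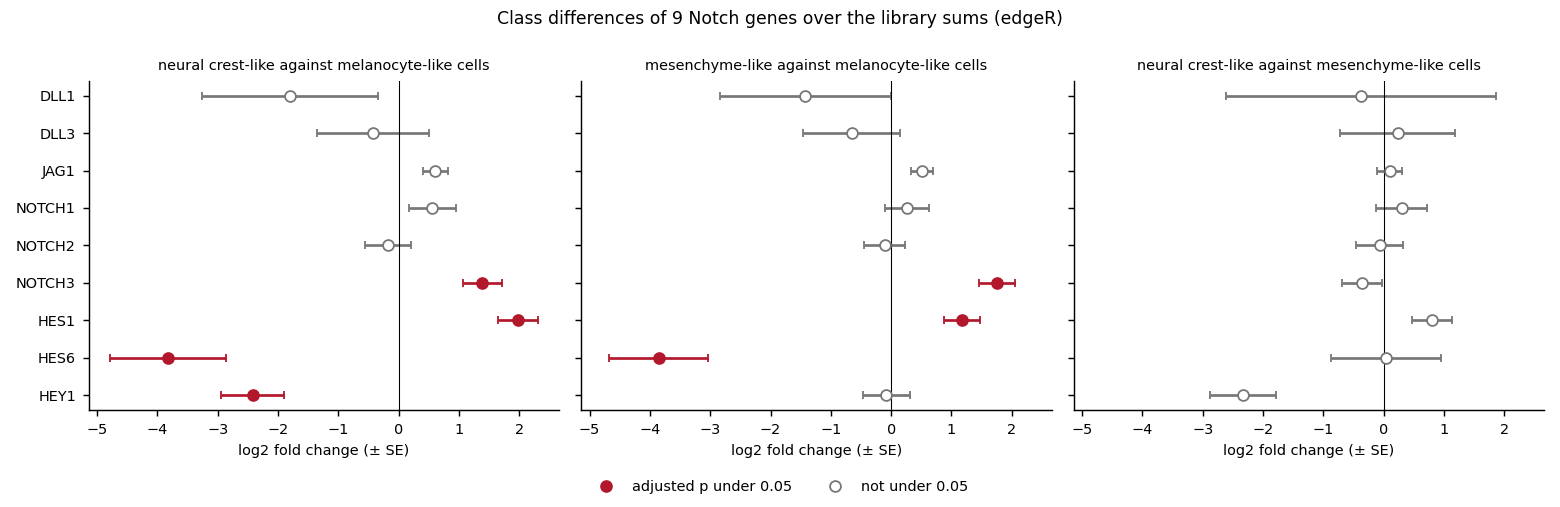
Log2 fold change ± SE of 9 Notch genes from edgeR over sums per library and class, for 3 pairs of classes (filled points: adjusted p under 0.05). HES1 and NOTCH3 lie right of 0 and HES6 left of 0 in both comparisons with melanocyte-like cells, and no gene is called between neural crest-like and mesenchyme-like cells.

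Of 50 further Notch pathway genes, 45 were tested. Between neural crest-like and melanocyte-like cells 8 were called, 5 higher and 3 lower, a share close to that of all genes (10.8% higher and 7.32% lower). By size of change the first 6 were the non-canonical ligands DNER (log2 fold change 7.46) and DLK1 (6.87), the co-repressor TLE4 (5.20), the target-family gene HES2, the γ-secretase subunit PSEN2 (−1.87) and the E3 ligase DTX3 (1.74), with adjusted p of 5.67e-05 to 0.00825 by edgeR. HES2 had 3 and 0 UMIs in the neural crest-like cells of D23 and D32, against 234, 837 and 340 in the melanocyte-like cells, too few for a fold. DLK1 was at 59.9 and 981 CPM in neural crest-like cells, against 1.59, 2.57 and 0.279 in melanocyte-like cells, and TLE4 at 236 and 48.3 against 4.60, 1.74 and 1.45. PSEN2 was at 5.60 and 13.6 against 26.3, 35.4 and 31.9. None of these groups overlapped, but these genes were named by size of change.

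Between mesenchyme-like and melanocyte-like cells 7 of the 45 were called, 5 higher and 2 lower, where 9.56% of all genes were called higher and 9.26% lower. Those named were TLE4 (log2 fold change 4.70), the feedback inhibitor NRARP (4.30), the target-family gene HES4 (2.60), PSEN2 (−2.13) and the co-repressor TLE1 (−1.42), with adjusted p of 4.03e-05 to 0.0347 by edgeR. HES4 was at 85.8, 56.7 and 86.9 CPM in mesenchyme-like cells, against 21.5, 7.45 and 9.72 in melanocyte-like cells, without overlap. NRARP rested on few UMIs, 12, 5 and 0 in the mesenchyme-like against 5, 6 and 11 in the melanocyte-like cells. Of the 3 genes called between neural crest-like and mesenchyme-like cells (of all genes, 1.89% higher and 1.12% lower), HES4 was lower in the neural crest-like cells (−1.51, called in 6 of 15 alternative settings) and DLK1 and DNER were higher. DNER had 97 and 67 UMIs in the neural crest-like cells of D23 and D32 and 0, 1 and 0 UMIs in the mesenchyme-like cells. Against the melanocyte-like cells, TLE4 and HES4 were thus called higher and PSEN2 lower in both the neural crest-like and the mesenchyme-like cells.

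Within the melanocyte-like cells, which dominated D32 and D44, the Notch genes also differed between days. NOTCH3 was at 18.3, 7.91 and 3.13 CPM at D23, D32 and D44, a D44 level that was 0.171 of the D23 level (95% interval 0.154 to 0.190). NOTCH1 was at 17.3, 8.21 and 7.94 and NOTCH2 at 60.9, 31.3 and 24.1. The receptors were therefore all lower at D32 than at D23, and NOTCH1 had overlapping intervals at D32 and D44. DLL3 was at 6.07, 11.2 and 17.5, 2.88 times as high at D44 as at D23 (2.50 to 3.34). HES6 was at 99.6, 249 and 230, and HEY1 at 11.1, 13.8 and 25.1. HES1 was lowest at D32 (54.4, 15.2 and 25.8), as was JAG1 (25.1, 17.5 and 21.7). DLL1 was at most 0.368 and HES5 at most 0.569 CPM on the 3 days. With 1 library per day these differences were not tested.

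In each library the melanocyte-like cells were divided into 4 bins of equal cell number by their melanocyte marker score. HES6 and JAG1 were higher in each successive bin in all 3 libraries. From the lowest to the highest bin, HES6 was at 76.6 and 123 CPM at D23, 173 and 343 at D32 and 108 and 342 at D44, and JAG1 at 18.4 and 34.1, 11.1 and 26.0, and 10.6 and 38.9. DLL3 followed the score at D32 (7.83 and 16.0) and D44 (9.88 and 32.4) but not at D23 (5.93 and 5.00). HES1 and NOTCH1 ran the other way. HES1 was at 61.0 and 47.3 at D23, 19.3 and 11.2 at D32 and 30.4 and 18.0 at D44, and NOTCH1 at 20.3 and 15.0, 10.9 and 5.97, and 11.7 and 5.04, with overlapping intervals at D23. NOTCH2 was nearly level (60.6 and 62.5, 30.2 and 30.5, 24.9 and 23.3).

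HEY1 stood apart at D44, with 58.5 CPM in the lowest bin and 9.74 in the highest. HEY1 was highest in 1 cluster of 371 melanocyte-like cells, at 113 CPM (108 to 118), against 11.8 to 24.7 in the other clusters of D44, and this cluster gave 30.0% of the class's HEY1 UMIs. That cluster was led by NPY, VGF and COL1A1, the last a mesenchyme marker, and also held all 13 mesenchyme-like cells of D44. Without it HEY1 was still at 42.5 and 9.62 in the lowest and highest bins, and at 18.8 in the melanocyte-like cells of D44 as a whole.

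**Figure D5:**
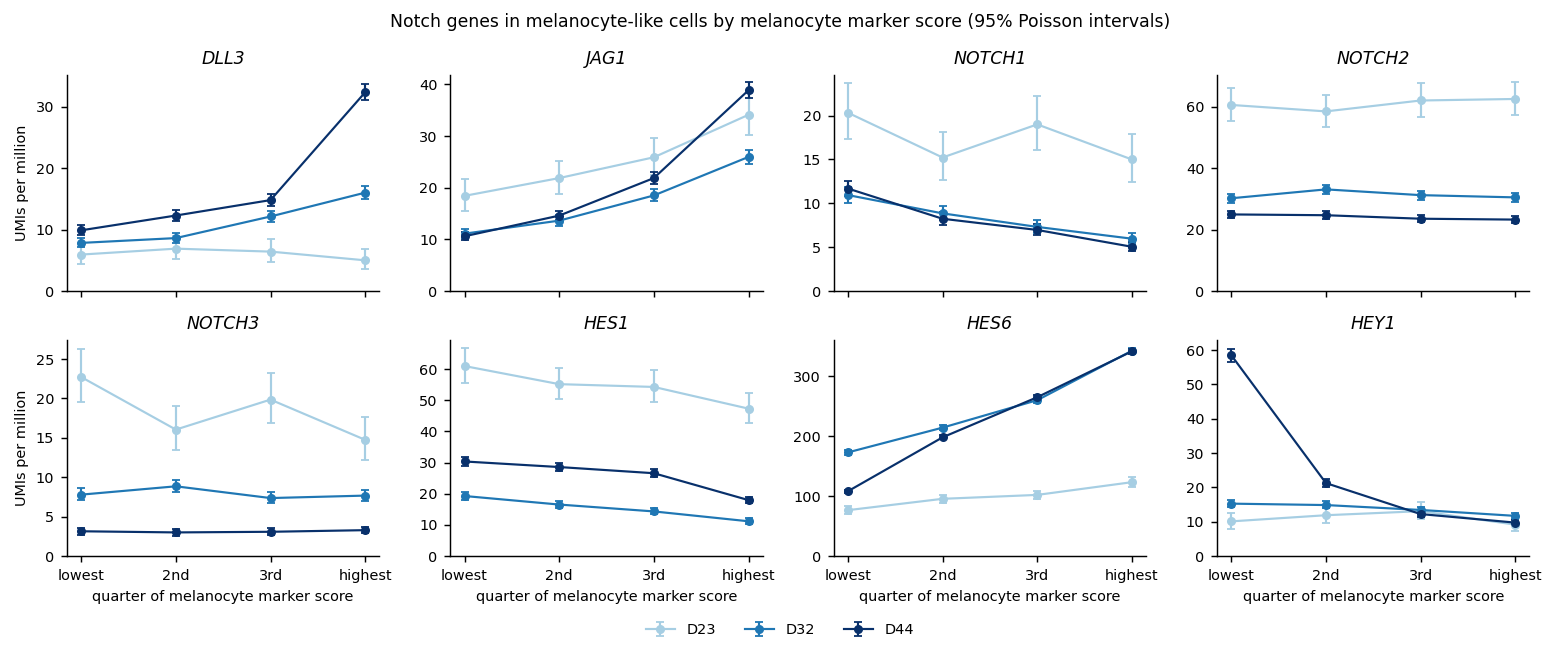
Level in CPM of 8 Notch genes in melanocyte-like cells, in 4 bins of melanocyte marker score at D23, D32 and D44, with 95% Poisson intervals. HES6 and JAG1 are higher in the highest than in the lowest bin in all 3 libraries (at D44 342 against 108 and 38.9 against 10.6 CPM), and HEY1 at D44 is highest in the lowest bin (58.5).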

How the data were processed

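The deposited matrices hold UMI counts per gene and barcode that the authors made with Cell Ranger 6.1.2 on hg38, and the annotation release is not given in the sources used here. The study's cell filter was applied: more than 1000 and fewer than 7000 genes and 500 to 50000 UMIs at D23, more than 3000 and fewer than 9000 genes and 500 to 100000 UMIs at D32 and D44, and at most 10% mitochondrial UMIs. Marker scores (mean log of counts per 10000) set the classes, with cuts of 0.7, 0.4, 0.5 and 0.5 for neurogenic, neural crest, mesenchyme and melanocyte scores, chosen after the score distributions were seen. At D23 43, 150, 123 and 94 cells lay within 0.1 of these cuts. Scrublet marked 58 barcodes of D23 as doublets by its automatic threshold. At D32 and D44 the threshold on its score was set by the share of doublets expected from the barcode number, which marked 364 and 333. All marked barcodes were kept, and they were left out as an alternative. The libraries shared 9 to 28 barcodes pairwise.

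Counts were summed per library and class, and CPM were taken over all UMIs of a class. Sums were tested with edgeR 4.0.16 (TMM, R 4.3.3, Benjamini-Hochberg over 14705 genes, threshold 0.05), with DESeq2 1.42.0 as an alternative. The library block pairs sums because the classes of a library shared its preparation and sequencing. The fit was tested on simulated data. Clusters (Louvain, scanpy 1.11.5, Notch genes excluded) and thinning to 3000 UMIs per cell served as checks. Coordinates and sequences are GRCh38. The 10 genes, the list of 50 further Notch genes and the markers were chosen with earlier results of these data known. The text names all 10 genes and, of the 50, those called with the 6 largest changes per comparison, apart from 1 result that is not reported here. MFNG, MIB1, RBPJ and the levels of DLK1 in D23 were named after their values were seen.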

Additional observations from a re-analysis of the deposited data

Results flagged for a closer look

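Some class ratios lay on opposite sides of 1 in different libraries, with counting intervals that left out 1 for every value below other than NOTCH2 at D44. With 1 library per day these differences were not tested. NOTCH1 in mesenchyme-like over melanocyte-like cells was 0.598 at D23 (95% interval 0.408 to 0.850), 1.58 at D32 (1.31 to 1.90) and 2.66 at D44 (1.22 to 5.07). NOTCH2 in neural crest-like over mesenchyme-like cells was 0.630 at D23 (0.544 to 0.731) and 1.87 at D32 (1.43 to 2.42). NOTCH2 in mesenchyme-like over melanocyte-like cells was 1.45 at D23 (1.27 to 1.64), 0.582 at D32 (0.497 to 0.677) and 0.975 at D44 (0.467 to 1.79). DLL3 in neural crest-like over melanocyte-like cells was 1.97 at D23 (1.55 to 2.49) and 0.525 at D32 (0.300 to 0.855). HEY1 in mesenchyme-like over melanocyte-like cells was 1.39 at D23 (1.01 to 1.88), 0.432 at D32 (0.326 to 0.563) and 1.78 at D44 (1.07 to 2.78), where the D44 class held 13 cells. None of these genes passed the test in these comparisons, and of the 15 alternative settings only clusters in place of the gate gave a call, for DLL3 (adjusted p = 0.0168 by edgeR).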

How the results depend on the processing

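The 11 fold changes followed, for HES1, NOTCH3, HES6, HEY1 and JAG1, were those with an unadjusted p under 0.05 by edgeR. They kept their sign in all 15 alternatives tried. Among the other fold changes of the Notch genes tested, the sign was kept in 10 to 15 of the 15. The lowest was DLL3 and the highest included NOTCH1, both in neural crest-like against melanocyte-like cells. Over all genes, the count called between neural crest-like and melanocyte-like cells (2666) was 4393 with no filter on low counts, 1524 after thinning and 2046 to 2433 when each library was left out in turn. Between mesenchyme-like and melanocyte-like cells (2767) it was 4235 with no filter, 1694 without the library block that pairs the sums, 1504 after thinning and 1801 (without D32) to 3060 by library. Between neural crest-like and mesenchyme-like cells (442) it was 1013 with DESeq2, 1594 with no filter, 65 without the library block, 165 with Louvain clusters, 141 with 10% free RNA taken off and 299 to 1168 (without D23) by library. Where 1 sum of a class was left, it was assumed to vary like the others. The neurogenic-like over neural crest-like ratio at D23 was 51.2 with clusters, 98.2 with the stricter gate and 103 with free RNA taken off for DLL3, 380 and 443 for HES6 with clusters and the stricter gate, and 0.129, 0.00492 and 0.0484 for HES1. The stricter gate left few HES1 UMIs in the neurogenic-like cells. Of the D23 UMIs, the neurogenic-like share with the stricter gate was 41.3% for DLL1, 59.7% for DLL3 and 46.3% for HES6, with clusters 82.5% for DLL3 and 72.2% for HES6, and without doublets 69.9% for HES6, and the neural crest-like share of HES1 was 37.1% with the stricter gate. That gate kept 181 of 296 neurogenic-like and 479 of 631 neural crest-like cells, while its shares were still of the whole library. Within the named classes and with free RNA taken off, these shares were 94.9% for DLL1, 91.3% for DLL3, 77.6% for HES6 and 50.3% for HES1. Scaling by total UMIs in place of TMM moved the median of all genes between neural crest-like and melanocyte-like cells to 0.04 from −0.11. HES1 in the neural crest-like against melanocyte-like comparison kept its call in all 15 alternatives. The main limits are 1 library per day and the 15, 13 and 6 cells of the smallest classes.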

Other observations

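The genes most like each Notch gene over the 10 sums were ranked by Pearson's r among 14705 genes, as a description, since the sums share libraries and 1 class can set r. For DLL1 these were MYT1 (0.998), DRD2 (0.997) and APC2 (0.997), for DLL3 USP18 (0.984), BRSK2 (0.980) and RASD1 (0.976), and for NOTCH3 AGO3 (0.943), PURPL (0.936) and MAML2 (0.933). The closest gene was CCDC77 for HES6 (0.963), SHC1 for HES1 (0.930) and GNA11 for HEY1 (0.955). CLDN5, a tight-junction gene listed as an endothelial marker, was at 366 CPM in the neurogenic-like cells of D23 (703 UMIs) and at most 0.123 in the other classes of D23, and CDH5, a cadherin of the same list, was at 6.26 there (12 UMIs) and at most 0.622 in the other classes. Of the other 3 genes of that list, KDR had 7 UMIs and PECAM1 and TEK had 0 in the neurogenic-like cells. Of 3 markers of pluripotent cells, POU5F1 had 1 UMI, NANOG 0 and L1TD1 2 in the neurogenic-like cells of D23, and L1TD1 was at 45.6 CPM (145 UMIs) in the mesenchyme-like cells of D23.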
